A study of Mus musculus with 6 samples.

Results

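The Skint genes form a mouse family of 10 numbered members considered here, Skint1 to Skint10. Of these, 4 were measured in skin of LynDN transgenic and wild-type (WT) mice: Skint3, Skint4, Skint7 and Skint9. They were taken from the deposited value table as every row whose only platform gene symbol was one of the 10 names, which gave 4 of 22879 rows, each resting on 1 probe. The platform annotation named no probe for the other 6 members, which were not analysed here. Skin total RNA of 3 mice of each genotype was hybridised to 2-colour arrays. Each LynDN mouse was set against 1 WT mouse on 2 arrays with the dyes exchanged (a dye swap), so that 6 arrays gave 3 mouse pairs. LynDN mouse 1 met WT mouse 1 (pair 1), LynDN mouse 2 met WT mouse 3 (pair 2) and LynDN mouse 3 met WT mouse 2 (pair 3). LynDN, which the series title writes as LynDeltaN, is a transgene of the Src family tyrosine kinase Lyn. The sources used here do not give its promoter, or the strain, age and skin site of the mice. The values are log ratios between the channels of an array, so they carry no level of expression, and the label skin could not be checked against marker levels.

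Skint proteins are membrane proteins with immunoglobulin-like domains and are relatives of the butyrophilins. They are made mainly by keratinocytes and by epithelial cells of the thymus. The founding member, Skint1, is needed for the selection of dendritic epidermal T cells, the gamma-delta T cells that live in mouse epidermis and watch over keratinocytes. Skint3 and Skint9 have been linked to signals that keratinocytes at a wound edge give to these T cells. In normal epidermis, keratinocytes that leave the basal layer switch from the basal keratins to suprabasal keratins and then make cornified envelope proteins such as filaggrin and loricrin.

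All 10 members lie on mouse chromosome 4. By the RefSeq gene table of GRCm38.p6 their order is Skint8, Skint7, Skint1, Skint4, Skint3, Skint9, Skint2, Skint10, Skint6 and Skint5, so that Skint9 is flanked by Skint3 and Skint2. The 250 bases before the transcription start are shown for the 4 measured members, because their ratios differed in size although they are paralogs of one cluster. Sequences are from RefSeq promoters of GRCm38.p6, where all 10 members matched, with 2 starts for Skint4, of which the second is shown because it aligned with the Skint3 window over most of its length. They run 5′ to 3′ along the gene's own strand, and capitals mark the TATA box letters TATAAA or their reverse complement.
Skint9, chr4:112433986-112434235, minus strand: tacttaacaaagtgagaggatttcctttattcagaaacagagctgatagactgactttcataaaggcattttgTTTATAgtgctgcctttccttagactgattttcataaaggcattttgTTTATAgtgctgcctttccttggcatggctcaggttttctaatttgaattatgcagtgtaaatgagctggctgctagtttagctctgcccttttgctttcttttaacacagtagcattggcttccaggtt
Skint3, chr4:112231995-112232244, plus strand: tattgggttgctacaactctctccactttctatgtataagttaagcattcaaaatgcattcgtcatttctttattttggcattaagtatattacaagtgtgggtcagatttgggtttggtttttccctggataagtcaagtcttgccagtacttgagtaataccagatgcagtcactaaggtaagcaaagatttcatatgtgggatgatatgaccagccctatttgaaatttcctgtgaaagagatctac
Skint4, chr4:112081220-112081469, plus strand: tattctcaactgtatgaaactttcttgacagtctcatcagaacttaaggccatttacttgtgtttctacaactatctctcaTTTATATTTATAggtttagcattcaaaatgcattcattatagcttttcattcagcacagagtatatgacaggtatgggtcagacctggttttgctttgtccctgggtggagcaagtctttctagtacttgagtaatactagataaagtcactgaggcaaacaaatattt
Skint7, chr4:111972677-111972926, plus strand: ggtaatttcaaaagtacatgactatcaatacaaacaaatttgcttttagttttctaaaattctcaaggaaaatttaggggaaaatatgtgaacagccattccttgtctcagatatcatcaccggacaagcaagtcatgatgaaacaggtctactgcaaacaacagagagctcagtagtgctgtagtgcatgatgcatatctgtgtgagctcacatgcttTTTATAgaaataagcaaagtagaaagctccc

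The window of Skint9 held the letters TATAAA at 177 and 130 bases upstream of the start, both on the reverse strand, and that of Skint7 held them 31 bases upstream, also in reverse. In the Skint4 window 2 reverse matches lay side by side, 169 and 163 bases upstream, and the Skint3 window had none. The first Skint4 window, not shown, held none of the motifs searched and aligned with the Skint3 window over 25 bases. Across the family 6 of 11 windows held the letters on either strand, against 12.4% of 32851 promoter windows of the same length. Of the 6, only that of Skint1 held them on the gene's own strand. The matches lay from 209 to 18 bases upstream, and whether any works as a TATA box was not tested. Windows of paralogs are copies in part, so the 11 are not independent. The AP-1 letters TGANTCA were in 0 of the 11 windows, against 6.75% of all windows. The STAT letters TTCNNNGAA were in 1, that of Skint8, against 7.02% of all windows. A feature of the Skint9 window was a direct repeat: 39 bases beginning at -195 returned without a mismatch at -148, and each copy carried 1 of the TATAAA matches. In the other Skint windows the longest direct repeat without overlap was from 6 to 9 bases. A direct repeat of at least 39 bases was found in 0.28% of all windows. Between members, the Skint3 window and the second Skint4 window matched at 80.5% of 190 aligned bases, those of Skint7 and Skint8 at 97.2% of 71, and those of Skint9 and Skint10 at 84.6% of 117.

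The sign of each ratio is used as deposited, because the sources used here do not state which genotype is the numerator. The alarmin gene S100a9, at a mean log2 ratio of 5.54 with an SD of 0.16 over the 3 pairs, marks the positive side. LynDN mice are known for inflamed skin, in which S100a9 is usually abundant; that background would make LynDN the numerator, but no probe of the table was named Lyn. Negative below therefore means the side opposite S100a9. Folds take the logarithm to be base 2, which the sources do not state. The 2 arrays of a swap were averaged to 1 pair value. The Skint genes were chosen by name with their genotype ratios on these arrays already known, so these ratios, and the calls among them in the fit over all rows, are given as a description and no test of the family is drawn from them.

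Skint9 (Entrez 329918) had by far the largest ratio of the measured members. In pair 1 its log2 ratio was -0.79 on the array with LynDN in Cy3 and -0.88 on that with LynDN in Cy5. In pair 2 it was -2.24 on both arrays, and in pair 3 it was -3.05 and -2.53. All 6 arrays lay on the negative side, with pair 1 nearest to 0 and pair 3 farthest. The pair values were -0.84, -2.24 and -2.79, which are 1.79-fold, 4.73-fold and 6.93-fold in size. Their mean was -1.96 ± 1.01 (SD, n = 3), or 3.88-fold. The spread between pairs was thus wide, while the arrays of a swap differed by 0.09, 0.00 and 0.52 in size.

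The other 3 measured members had small ratios of the same sign. Skint4 (Entrez 320640) had -0.37 with LynDN in Cy3 and 0.32 with LynDN in Cy5 in pair 1; pair 2 gave -0.47 and -0.28 and pair 3 gave -0.64 and -0.25. It was negative on 5 of 6 arrays, and its mean was -0.28 ± 0.23 (SD, n = 3). Skint7 (Entrez 328505) had -0.19 and -0.05 on pair 1's arrays, -0.32 and -0.27 on pair 2's and -0.38 and -0.33 on pair 3's, in the same order of dyes. It was negative on every array, with the narrowest spread of the 4 genes, and its mean was -0.26 ± 0.12 (SD, n = 3). Skint3 (Entrez 195564) had -0.33 and 0.23 on pair 1's arrays, -0.39 and 0.22 on pair 2's and -0.88 and -0.16 on pair 3's. Its sign changed with the dyes in pairs 1 and 2, and its mean was -0.22 ± 0.26 (SD, n = 3). Without pair 3 the mean of Skint3 was -0.07. The means of Skint3, Skint4 and Skint7 differed from each other by less than the SD of any of them, so their order is not resolved.

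**Figure D1:**
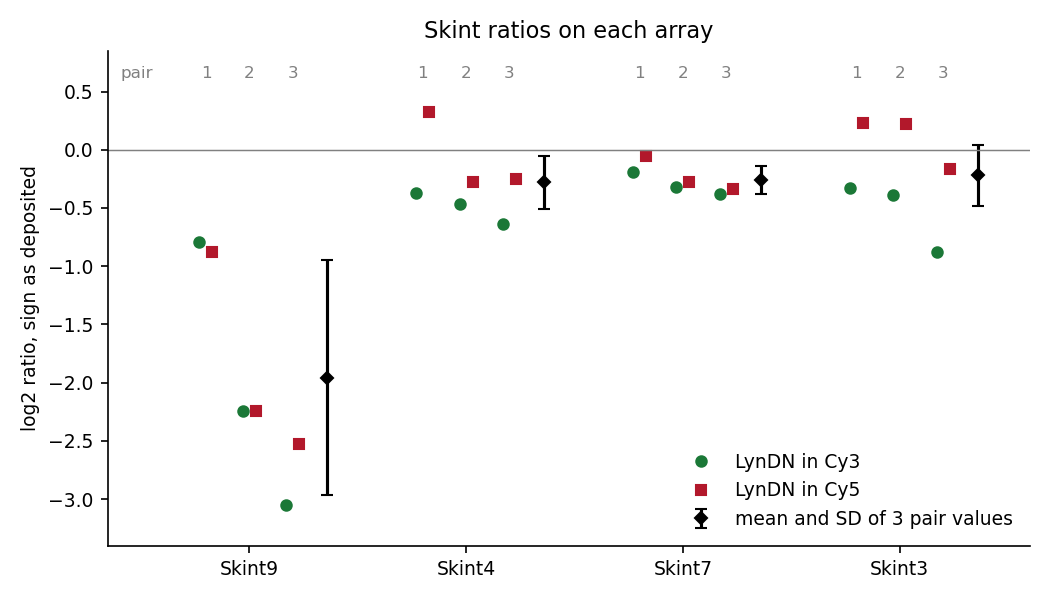
Log2 ratios (vertical axis, sign as deposited) of the 4 measured Skint genes on each of 6 arrays, by mouse pair 1, 2 and 3, with circles for LynDN in Cy3, squares for LynDN in Cy5, and diamonds with bars for the mean and SD of 3 pair values. Skint9 lies between -0.79 and -3.05 on all arrays, and the other 3 genes lie between -0.88 and 0.32.

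Within each pair Skint9 lay below the other measured members. Its pair values minus those of Skint3 were -0.79, -2.16 and -2.27 in pairs 1, 2 and 3. The mean difference was -1.74 ± 0.83 from Skint3, -1.68 ± 0.78 from Skint4 and -1.70 ± 0.89 from Skint7 (SD, n = 3). Skint9 was the lower of the 2 genes on 6 of 6 arrays in each of these comparisons. Members share the same arrays and mice, so these are descriptions of 3 pairs. The paralogs are similar in sequence, and how far 1 probe takes up RNA of another member was not tested, since probe sequences were not used here. Without spot intensities, a small ratio of 1 probe also cannot be told from that of a probe near background.

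Set among all rows, Skint9 had the third lowest mean ratio of 22879, after Lce1m with -2.57 and Flg with -2.23. Only 18 rows, 0.0787%, had a mean of -1 or lower, and 2 rows, 0.00874%, had -2 or lower. The place of Skint9 from the lowest row was 82 in pair 1, 4 in pair 2 and 5 in pair 3. Skint4, Skint7 and Skint3 stood at 3.12%, 3.71% and 5.28% of all rows counted from the lowest. The median of the 4 genes was -0.27 over the pairs (-0.09, -0.34 and -0.48 in pairs 1, 2 and 3), beside -0.01 for all rows. All 4 had negative values in each of 3 pairs, as had 20% of all rows, and Skint7 and Skint9 were negative on 6 of 6 arrays, as were 4.31% of all rows.

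**Figure D2:**
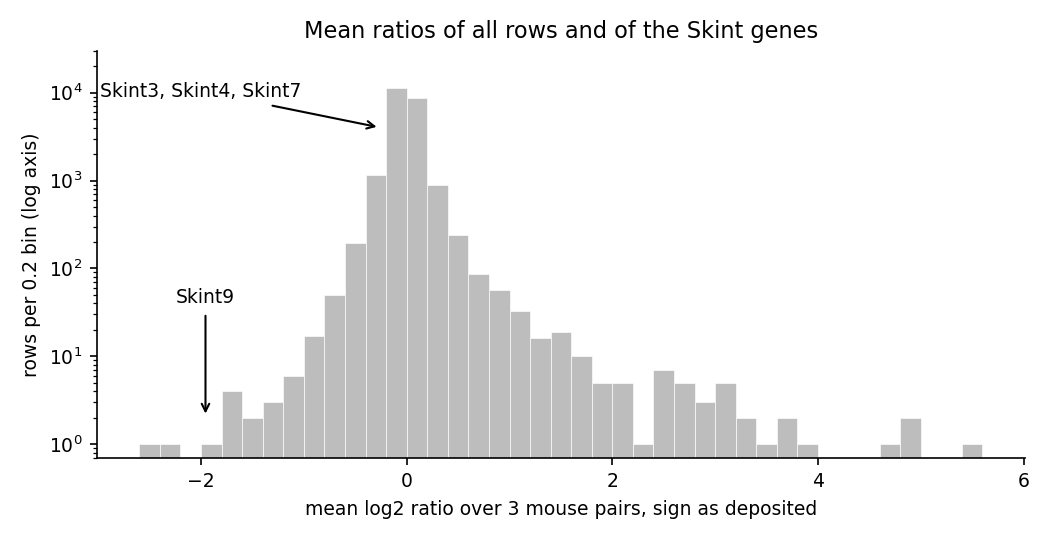
Number of rows (vertical log axis) by mean log2 ratio over 3 mouse pairs (horizontal axis, bins of 0.2), with arrows at the Skint genes. Skint9, at -1.96, lies in the sparse negative tail, and Skint3, Skint4 and Skint7 lie at the lower edge of the central peak.

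In the fit over all rows (limma on the pair values, Benjamini-Hochberg adjustment), 0 of 4 Skint genes passed an adjusted p of 0.05. Over all rows 4 passed, 0.0175%, of which 0 were negative. At an unadjusted p under 0.05 there were 3 Skint genes, Skint4, Skint7 and Skint9, and 12.3% of all rows. With the mouse pair as a random replicate block over the 6 arrays, 1 Skint gene passed, Skint9, as did 1.06% of all rows and 0.459% on the negative side. Nothing is read from these counts, since the genes were chosen with this contrast known. Without pair 1, 2 of the 4 passed, Skint4 and Skint9, while 1117 rows, 4.88%, passed in all.

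Pair 1 stood apart in more than the Skint genes. The Y-linked gene Eif2s3y had log2 ratios of 3.38 and 3.62 on its arrays and between -0.04 and 0.09 on the others. Kdm5d, also Y-linked, had 1.46 and 1.02 on pair 1's arrays and between -0.07 and 0.22 on the others. The mice of pair 1 thus differed in Y-linked transcripts, as mice of unlike sex do. Genotype and sex cannot be told apart in that pair. The arrays of the swap correlated across rows at r = 0.024 in pair 1 and at 0.463 and 0.462 in pairs 2 and 3, where rows are not independent. S100a9 did not follow this, with 5.65, 5.35 and 5.61 by pair. The part of the Y-linked difference in the smaller Skint9 ratio of pair 1 was not tested.

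The difference between the arrays of a swap (LynDN in Cy3 minus LynDN in Cy5) was tested over all rows. It is another quantity than the genotype mean but comes from the same arrays, so 1 outlying array moves both. The array of pair 2 with LynDN in Cy5 was dated to another day. In that pair dye orientation and day cannot be told apart. Without that array the mean ratio was -0.32 for Skint3 and -1.96 for Skint9. Skint3 had differences of -0.55, -0.61 and -0.72 in pairs 1, 2 and 3, with a mean of -0.63 ± 0.08 (SD, n = 3; limma adjusted p = 0.0545). That is larger in size than its genotype mean of -0.22. Skint4 had -0.70, -0.19 and -0.39 (mean -0.43 ± 0.25; limma adjusted p = 0.140). Skint7 had a mean of -0.08 ± 0.06 and Skint9 of -0.15 ± 0.33, with limma adjusted p of 0.659 and 0.581. None of the 4 passed, 2 had an unadjusted p under 0.05 (Skint3 and Skint4), and 131 rows, 0.573%, passed. Skint9 and Skint7 had the same sign in both orientations of every swap, whereas Skint3 with LynDN in Cy5 had a mean of 0.09.

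**Figure D3:**
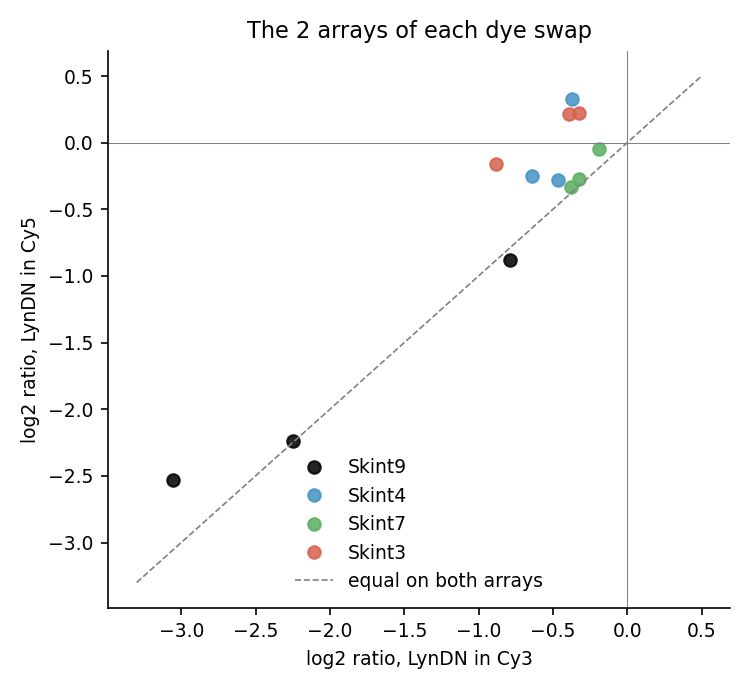
Log2 ratio on the array with LynDN in Cy3 (horizontal axis) against that with LynDN in Cy5 (vertical axis) for 4 Skint genes, 1 point per mouse pair, with a dashed line where both are equal. All 3 points of Skint3 lie above the line, by 0.55 to 0.72, as do those of Skint4, by 0.19 to 0.70, those of Skint7, by 0.04 to 0.14, and the pair 3 point of Skint9, by 0.52.

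The 5 named genes nearest to Skint9 over the 6 arrays, by root mean square distance of log2 ratios, were Wfdc21, Krt10, Flg, Hal and Lor. Wfdc21, a WAP-domain protein gene, had -0.94 and -0.95 on pair 1's arrays, -1.90 and -1.92 on pair 2's and -2.54 and -2.27 on pair 3's, at a distance of 0.311. Krt10, the keratin of suprabasal cells, had -0.60 and -0.32 on pair 1's arrays, -1.90 and -1.97 on pair 2's and -2.99 and -2.84 on pair 3's, at a distance of 0.326. These genes were picked for nearness on these same arrays, so the shared sign and order of the pairs describe the choice. Flg, which encodes filaggrin, had pair values of -1.26, -2.51 and -2.91, at a distance of 0.363. Hal, the histidine ammonia-lyase that forms urocanic acid in the cornified layer, and Lor, which encodes loricrin, were farther off, at 0.596 and 0.612. Lor spanned less between pairs than Skint9, with -1.18, -1.80 and -2.05.

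**Figure D4:**
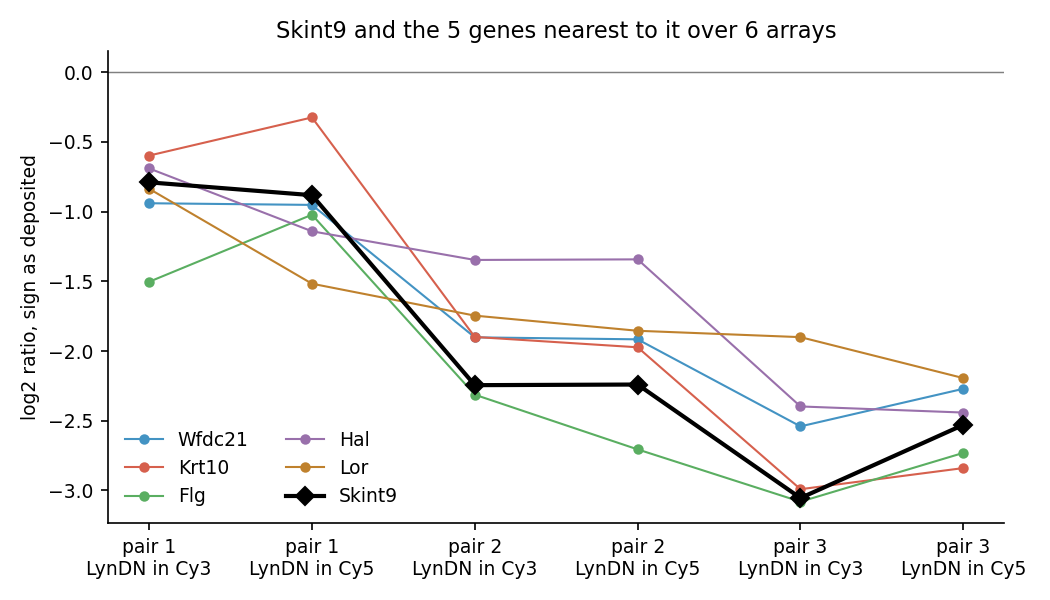
Log2 ratio (vertical axis, sign as deposited) of Skint9 and its 5 nearest named genes on the 6 arrays (horizontal axis, lines join one gene's values). The genes were picked for nearness to Skint9 on these arrays, and all lines lie below 0.

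Suprabasal genes as a list lay on both sides of 0. Of 16 measured, 7 had a negative mean and 9 a positive one, with a median of 0.01 and a range from -2.23 to 0.63. The median was -0.21, -0.01 and 0.04 in pairs 1, 2 and 3, and -0.19 without pair 2 and -0.07 without pair 3, and its sign also turned with quantile normalization (-0.02). With the block 2 passed, Flg and Lor, both negative, and on the pair values 0 passed. Krt1, the partner of Krt10, had -0.64 ± 0.61, and Dsc1, a desmosomal cadherin of upper layers, had -0.46 ± 0.26, while Cdsn, corneodesmosin, had 0.61 ± 0.37 and Krtdap 0.63 ± 0.71 (SD, n = 3). Of 13 basal keratinocyte genes 11 had a positive mean, and the median was 0.22. On the pair values 0 passed. With the block 2 passed positive, Krt14 with 1.34 ± 0.54 and the integrin gene Itgb4 with 0.47 ± 0.17, and 1 negative, the basal and hair follicle keratin Krt15 with -1.36 ± 0.33; their limma adjusted p on the pair values was 0.237, 0.247 and 0.123. By the mean over 3 pairs, Skint9 lay below every suprabasal gene measured except Flg. In pair 1 Lor lay lower than Skint9 (-1.18 against -0.84), and in pair 3 Krt10 did (-2.92 against -2.79). The order of these genes is therefore not resolved. Arrays of whole skin cannot tell fewer cells of a layer from less RNA per cell.

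Genes listed for epidermal gamma-delta T cells, the cells on which Skint proteins act, lay close to 0. The list named 32 genes, and its gamma and delta receptor chain genes had no row. Its values therefore cannot show whether these cells were unchanged. Of 22 measured, 0 passed on the pair values or with the block, where 0.0175% and 1.06% of all rows did, so a count of 0 is near the share of all rows. The median was -0.02 (-0.02, -0.01 and 0.06 by pair), and the means ran from -0.32 to 0.15. The largest ratio was that of Cd3g, a chain of the T cell receptor complex. It had -0.18 and -0.37 on pair 1's arrays, -0.47 and -0.45 on pair 2's and -0.18 and -0.30 on pair 3's, with a mean of -0.32 ± 0.12 (SD, n = 3; limma adjusted p = 0.273, and 0.0566 with the block). The other chains had -0.16 ± 0.21 for Cd3e, -0.05 ± 0.11 for Cd3d and 0.03 ± 0.18 for Cd247, so Cd3g had the only ratio of 1 sign on all arrays among them. The growth factor genes Fgf10 and Fgf7 had -0.16 ± 0.15 and -0.15 ± 0.18, and Sox13, a transcription factor gene of gamma-delta T cells, had 0.11 ± 0.05. Itgae, the integrin that holds T cells in epidermis, had 0.07 ± 0.06. Of 9 genes of alpha-beta T cells 0 passed in either fit, with a median of 0.00 and the largest mean at Cd28 (0.36 ± 0.37). Without spot intensities it cannot be said whether these probes were above background.

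**Figure D5:**
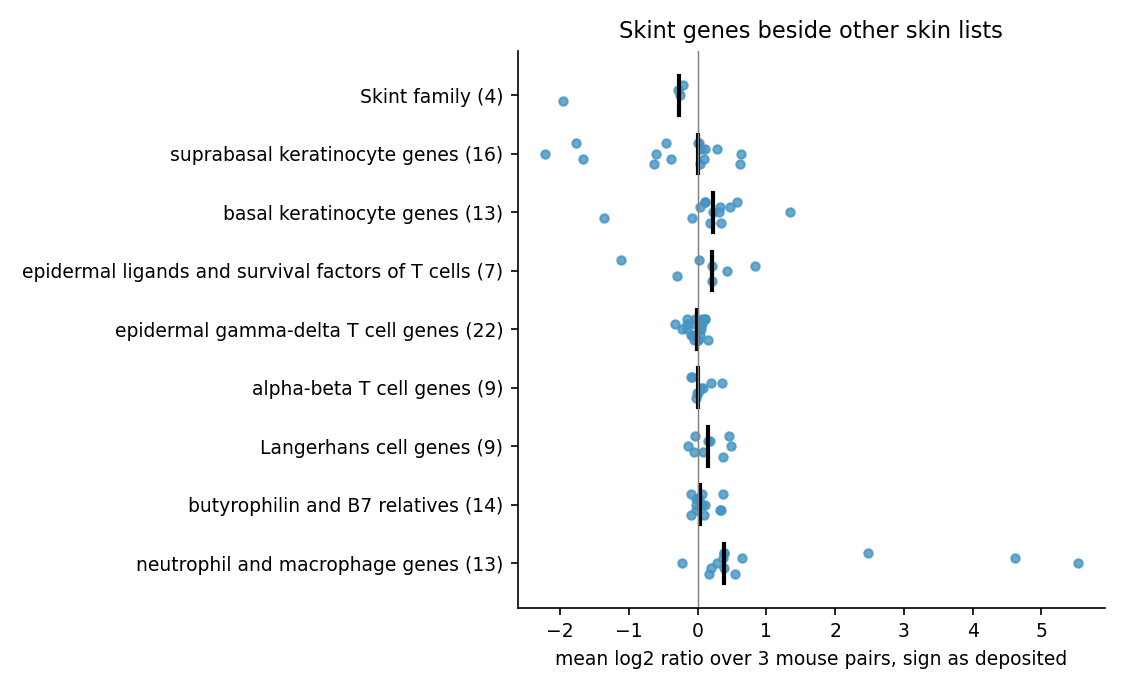
Mean log2 ratio over 3 mouse pairs (horizontal axis, sign as deposited) of each measured gene (points) in 9 lists, with the number measured in brackets and a black bar at the list median. Skint9 lies apart from the other Skint genes, the gamma-delta T cell genes lie between -0.32 and 0.15, and the S100 genes lie beyond 4.

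Keratinocyte signals to skin T cells other than the Skint genes lay on both sides. The list named 17 genes, and its Raet1, H60, Ulbp1 and Plxnb2 genes had no row. Of 7 measured, 0 passed on the pair values and 2 with the block, 1 in each direction. Ccl27a is a chemokine with which keratinocytes attract T cells. It had -0.32 and -0.70 on pair 1's arrays, -0.93 and -1.24 on pair 2's and -1.70 and -1.78 on pair 3's. The mean was -1.11 ± 0.62 (SD, n = 3), with a limma adjusted p of 0.278 on the pair values and 0.0495 with the block. The arrays of a swap were alike beside the spread between pairs, so the value with the block can be too small. Tslp, an epithelial cytokine, had 0.84 ± 0.44 and was positive on 6 of 6 arrays (limma adjusted p = 0.276 on the pair values and 0.0455 with the block). Ccl27a shared with Skint9 its sign and the order of the pairs, pair 1 nearest to 0 and pair 3 farthest. That order is not particular to Ccl27a, since Flg, Krt10 and Lor had it too. The SD of pair values across all rows was also 0.19, 0.29 and 0.30 in pairs 1, 2 and 3. The T cell survival cytokine gene Il15 had -0.30 ± 0.14 and Cxadr, whose product binds a receptor of epidermal T cells, had 0.42 ± 0.40.

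Of 14 measured butyrophilin and B7 relatives, the nearest families of the Skint genes, 0 passed in either fit. Their median was 0.04 and their means ran from -0.10 to 0.37. The highest were the inhibitory ligand gene Cd274 with 0.37 ± 0.28, Btnl10 with 0.34 ± 0.63 and the costimulatory gene Cd86 with 0.33 ± 0.13 (SD, n = 3), while Cd80 had 0.11 ± 0.16. Btnl10 rested on 1 array, with 2.20 there and from -0.15 to 0.16 on the other 5. Langerhans cell genes, the other resident leukocytes of epidermis, had a median of 0.15 over 9 genes (0.10 without pair 3), 6 with a positive mean and 3 with a negative one, and 0 passed in either fit. That median was the mean of H2-Eb1, whose sign changed with the dyes in every pair. H2-Eb1 had -0.32 and 0.55 on pair 1's arrays, -0.47 and 0.63 on pair 2's and -0.42 and 0.93 on pair 3's. The Langerhans cell marker Cd207 had 0.18 ± 0.06, and the antigen presentation genes Cd74, H2-Ab1 and H2-Aa had 0.49 ± 0.40, 0.45 ± 0.31 and 0.37 ± 0.33. Il34, the keratinocyte cytokine that maintains these cells, had -0.15 ± 0.14 and was negative on 6 of 6 arrays, and Cd1d1 and Runx3 each had -0.05, with SDs of 0.20 and 0.09. Neutrophil and macrophage genes, 12 of 13 with a positive mean, had a median of 0.38. Of these, S100a9 and S100a8 passed on the pair values, and with the block also Csf3r with 0.38 ± 0.12. The limma adjusted p of Csf3r was 0.257 on the pair values and 0.0486 with the block. Whether inflammatory cells in the skin bear on the Skint9 ratio was not tested.

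Genes beside the Skint cluster lay near 0, apart from Slc5a9. The RefSeq table placed 9 other loci among the members, and 0 of them had a row. Of the 10 nearest measured genes, 5 on either side, 0 passed in either fit, the median was 0.04 and the means ran from -0.14 to 0.55. Slc5a9, a sugar transporter gene and the next locus beyond Skint8, had 0.29 and 0.29 on pair 1's arrays, 1.02 and 1.04 on pair 2's and 0.46 and 0.19 on pair 3's. It was positive on 6 of 6 arrays, with a mean of 0.55 ± 0.42 (SD, n = 3; limma adjusted p = 0.326, and 0.108 with the block). The other 9 neighbours lay between -0.14 and 0.11, among them Spata6 with 0.11 ± 0.09 and Bend5 with -0.14 ± 0.12.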

How the data were processed

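Skin of 3 WT and 3 LynDN mice was measured on 6 arrays with 2 channels, per the labels' protocols with Qiagen extraction and Ambion labelling. The deposited table holds 1 log2 ratio per probe and array (25344 probes), taken as base 2; each column has a mean of 0. The sources used here name no scanner, background correction, normalization or numerator, and spot intensities were not used here. Probes were named through the platform annotation, and probes with 1 symbol were averaged per symbol, which left 22879 rows, 18617 of them named. Arrays of a swap share their RNA and were averaged; the labels give the pairing. In R 4.3.3, limma 3.58.1 (lmFit, then eBayes) tested whether the mean of the 3 pairs differed from 0, with Benjamini-Hochberg adjustment over all rows at 0.05. The replicate block fit took 6 arrays, a dye term and the pair as a random block (consensus correlation 0.151). That 1 correlation was applied to every row, also to rows whose swap arrays were much alike. For such rows, Skint9, Ccl27a and Tslp among them, the block took swap arrays as more independent than they were. Their adjusted p with the block can therefore be too small. Promoters were aligned locally with Biopython 1.88. Protein sequences were not used here. The limma step was tested on simulated data. The members and lists were chosen with earlier results of these data known. Named genes were all measured members, list genes that passed in either fit or else the 4 with the smallest p, the 5 nearest to Skint9, and 5 neighbours on either side. Other list members (among them Krt1, Dsc1, Cdsn, Krtdap, Itgae, Il15, Cxadr, Cd3e, Cd3d, Cd247, Il34, Cd1d1, Runx3, H2-Eb1 and Lama3) were named after their values were seen. So were Lce1m, Eif2s3y and Kdm5d. Precision is limited by the number of arrays, and SDs are over pairs. Alternatives varied the block, normalization, probe summary, variance moderation, pairs, arrays and dye orientation.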

Additional observations from a re-analysis of the deposited data

Results flagged for a closer look

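S100a8, an alarmin gene listed here with neutrophil genes, differed between the dye orientations. Its log2 ratio was lower with LynDN in Cy3 than with LynDN in Cy5 in each of 3 pairs, with a mean difference of -0.98 (limma adjusted p = 0.0410 over all rows). It was positive on 6 of 6 arrays in both orientations, and its mean ratio was 4.61 ± 0.12 (SD, n = 3). Among the other list genes, H2-Eb1 passed with a mean difference of -1.11 (limma adjusted p = 0.0340). Lama3, listed with basal keratinocyte genes, passed with 0.95 (limma adjusted p = 0.0361). No measured Skint gene passed this comparison.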

How the results depend on the processing

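Of the 12 alternatives, 4 (the block, no moderation, the median of probes and single probes) cannot move the ratios of the Skint genes, which rest on 1 probe each. Under the other 8, 39 of 40 values of the Skint genes and their median were negative and 37 stayed within 1 SD of the reported value. The exceptions were Skint3, with -0.53 on the arrays with LynDN in Cy3 and 0.0936 on those with LynDN in Cy5, and the family median, with -0.51 on the arrays with LynDN in Cy3. Leaving out 1 pair at a time gave Skint9 from -2.52 to -1.54. With 3 pairs, leaving out 1 cannot move a gene's mean by 1 SD. It also cannot turn its sign, since all 4 genes were negative in each pair. For the genes that part of the tally was fixed in advance. Centring on medians shifted all rows of an array alike. The count of Skint genes past the threshold was 0 as reported and 1 with the replicate block, and it ran from 0 to 2 when 1 pair was left out (2 without pair 1). The count of all rows was 243 with the block, 72 with quantile normalization, 0 without variance moderation, 54 with LynDN in Cy3 only, 24 with LynDN in Cy5 only, and 2 to 1117 with 1 pair left out (1117 without pair 1). Rows with a dye effect numbered 131, against 6 with quantile normalization, 0 without moderation and 7 to 49 with 1 pair left out. The cause was not tested. Signal over background could not be examined without intensities. Pairing came from the labels, and the block changed no other Skint call.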
